A study of Homo sapiens with 11 samples.

Results

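The annexin genes ANXA1, ANXA2, ANXA3, ANXA4, ANXA5, ANXA6, ANXA7, ANXA8, ANXA10 and ANXA11 were examined, 10 of the 20037 protein-coding genes in the annotation. For each gene the peaks whose summit lay in its GRCh38 span or within 50 kb of either end were taken from all 10 peak lists. The family was singled out because a site inside ANXA4 was among the strongest MYRF peaks shared by CFPAC1 and HPAF2, so the genes were chosen by the MYRF fold enrichment measured at ANXA4, and those values are described without a test and support nothing. Chromatin immunoprecipitation followed by sequencing (ChIP-seq) had been run on these human pancreatic ductal adenocarcinoma cell lines, with 2 libraries in each of 5 groups. MYRF was precipitated with an antibody made by the submitters from the original CFPAC1 line and from the original HPAF2 line, with CFPAC1 grown in IMDM and HPAF2 in RPMI. H3K27ac was precipitated from a CFPAC1 clone infected with lentiCRIPSv2 (spelled as in the labels) that carried Cas9 and a guide RNA against MYRF, here the MYRF knockout clone, and from a CFPAC1 clone infected with lentiCRIPSv2 for which no guide is labelled, here the control clone. FOS was precipitated from a control clone described in the same words. Both were clonal lines obtained by dilution, 1 clone each, so clonal origin and loss of MYRF cannot be told apart in their comparison. Nothing in the labels states that the libraries of a group came from separate cultures, and p-values then measure only the spread between libraries.

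Annexins bind phospholipid membranes in a calcium-dependent way through a core of repeated domains, and their differing N-terminal tails bring in partners such as S100 proteins. They act in membrane repair, vesicle traffic and the organisation of the membrane skeleton, and several of them are abundant in secretory epithelia. MYRF is a membrane-bound transcription factor that cuts itself, which frees a DNA-binding fragment for the nucleus. FOS pairs with JUN proteins in AP-1 complexes, and acetylation of histone H3 at lysine 27 (H3K27ac) marks active promoters and enhancers.

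The lists held 4743 and 4041 MYRF peaks in CFPAC1, 3702 and 4326 in HPAF2, 29087 and 36349 FOS peaks, and between 107586 and 116466 H3K27ac peaks. They carry no read counts, so sequencing depth is unknown. The H3K27ac lists of the knockout clone covered 87.9 and 92.9 Mb of the genome, and those of the control clone covered 100.549 and 95.2 Mb. Of the cell type markers, 6 of 6 epithelial genes, 1 of 3 blood genes and 0 of 2 stromal genes had an H3K27ac peak at a gene end in both control clone libraries. A peak's fold enrichment is the authors' value over the local background estimate of its own library, and it is used here to rank peaks within a list. Peaks of both replicates that overlapped by at least 1 bp were joined into a site. A place where only 1 replicate had a peak is called a location and not a site.

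The start regions of the genes come first, because acetylation, FOS and MYRF peaks can be placed against them. RefSeq's promoter table (GRCh38.p14) held 13 start sites for 9 of the 10 genes and none for ANXA8. A start of AAK1, another gene, adjoins the first ANXA4 start, so the bases before it are not surely those of ANXA4 alone. The 250 bases before the start are given 5′ to 3′ for the 2 starts of ANXA4, both upstream of the strong MYRF site, for the starts of ANXA2 and ANXA11 that hold searched letters, and for ANXA10 as the most AT-rich of the family. Capitals mark the only matches to the letters searched on both strands, CTGGCAC or GTGCCAG, a core described for MYRF in rat cells, and TGANTCA, the AP-1 core.
ANXA4, first start, chr2:69643558-69643807, plus strand: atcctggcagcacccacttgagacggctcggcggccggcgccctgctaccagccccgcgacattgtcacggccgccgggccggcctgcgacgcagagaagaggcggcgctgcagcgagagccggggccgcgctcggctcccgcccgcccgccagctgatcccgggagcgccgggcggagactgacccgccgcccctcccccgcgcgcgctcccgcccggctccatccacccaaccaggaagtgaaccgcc
ANXA4, second start, chr2:69741884-69742133, plus strand: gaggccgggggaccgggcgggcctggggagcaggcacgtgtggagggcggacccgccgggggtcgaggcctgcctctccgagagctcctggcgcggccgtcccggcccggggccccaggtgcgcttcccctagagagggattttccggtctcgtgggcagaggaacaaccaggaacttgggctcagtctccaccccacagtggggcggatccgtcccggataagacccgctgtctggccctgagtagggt
ANXA2, chr15:60397987-60398236, minus strand: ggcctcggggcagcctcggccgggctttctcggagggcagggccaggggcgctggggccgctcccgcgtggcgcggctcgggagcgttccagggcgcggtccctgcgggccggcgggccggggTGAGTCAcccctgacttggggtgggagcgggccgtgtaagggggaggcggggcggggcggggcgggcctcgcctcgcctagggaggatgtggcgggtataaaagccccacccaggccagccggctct
ANXA11, second of its starts, chr10:80205538-80205787, minus strand: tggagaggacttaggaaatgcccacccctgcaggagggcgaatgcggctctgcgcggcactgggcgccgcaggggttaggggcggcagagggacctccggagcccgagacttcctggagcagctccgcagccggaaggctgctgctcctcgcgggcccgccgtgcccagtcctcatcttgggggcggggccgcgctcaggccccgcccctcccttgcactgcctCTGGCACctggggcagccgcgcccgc
ANXA10, chr4:168092287-168092536, plus strand: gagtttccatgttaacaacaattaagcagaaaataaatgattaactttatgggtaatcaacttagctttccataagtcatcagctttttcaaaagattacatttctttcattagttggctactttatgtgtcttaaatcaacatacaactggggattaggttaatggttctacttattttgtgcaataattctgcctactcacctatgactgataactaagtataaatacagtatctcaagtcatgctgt

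G and C made up 77.2% and 71.6% of the bases before the first and second ANXA4 start, 78.0% before the ANXA2 start, 73.6% before the ANXA11 start shown and 31.2% before the ANXA10 start. Over the 300 bases from 250 before to 50 after the start, the MYRF letters were found at 1 of the 13 annexin starts and in 5.50% of all 35116 promoter windows of the table, and the AP-1 letters at 1 of 13 and in 7.71%. The MYRF letters, 26 bases before the ANXA11 start, lay under an H3K27ac peak in both knockout clone and both control clone libraries and under no MYRF or FOS peak. The AP-1 letters, 127 bases before the ANXA2 start, lay under no FOS peak and under an H3K27ac peak in knockout clone replicate 1 alone. The bases of the strong ANXA4 site itself are not shown, as no genome sequence was used here.

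Inside ANXA4, a protein of apical membranes in secretory and ductal epithelia, MYRF peaks formed a cluster downstream of the second start (ANXA4: chromosome 2, 69643808 to 69827112, GRCh38, positions counted from 1). The strongest lay 39476 bp downstream of the second start, and whether it is exonic or intronic is not given by the annotation used. CFPAC1 had a fold enrichment of 66.7 in replicate 1 and 68.6 in replicate 2 there, and HPAF2 had 51.0 in replicate 1 and 56.1 in replicate 2. Within the lists it ranked 3rd and 4th by fold in CFPAC1 and 11th and 10th in HPAF2. Its 4 summits fell within 8 bp of one another, the tightest agreement among the 3 MYRF locations of the family that were found in every MYRF library. These are the values that led to the choice of the family.

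A companion MYRF peak lay 2189 bp upstream of the strong ANXA4 summit, and it too was present in all 4 MYRF libraries. It had a fold of 7.83 and 5.31 in CFPAC1 and of 9.31 and 12.8 in HPAF2. It stood at percentiles 81.5 and 48.7 of the CFPAC1 lists and 84.8 and 91.3 of the HPAF2 lists. A further location, 9008 bp upstream of the companion, had peaks of 9.33 and 6.53 in the HPAF2 replicates and of 4.22 in CFPAC1 replicate 1 only. The remaining MYRF peaks in the ANXA4 window occurred in 1 library each, at 5.68 in CFPAC1 replicate 1, 14289 bp downstream of the second start and under a FOS site of 7.13 and 7.72, and at 4.36 in HPAF2 replicate 2, 24364 bp downstream of the first. Neither ANXA4 start had a MYRF peak within 1 kb in any list.

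FOS peaks separated the ANXA4 locations. At the companion, FOS peaks of 5.27 and 6.50 overlapped the MYRF peaks, with FOS summits 31 and 0 bp from the strongest MYRF summit there. The location 9008 bp further upstream also had FOS, at 5.07 and 7.16. The strong site was overlapped by no FOS peak, and the nearest FOS summits were those at the companion, 2158 and 2189 bp away. FOS had 10 sites in the ANXA4 window, the strongest of 9.27 and 9.11, 31.7 kb downstream of the first start and without a MYRF peak. Of the 10 sites, 4 were nearest to a start of another gene, AAK1 or GMCL1, which also reach into the window. A FOS site of 4.37 and 5.96 lay at the second ANXA4 start, 27 bp downstream of it by the replicate 1 summit.

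**Figure D1:**
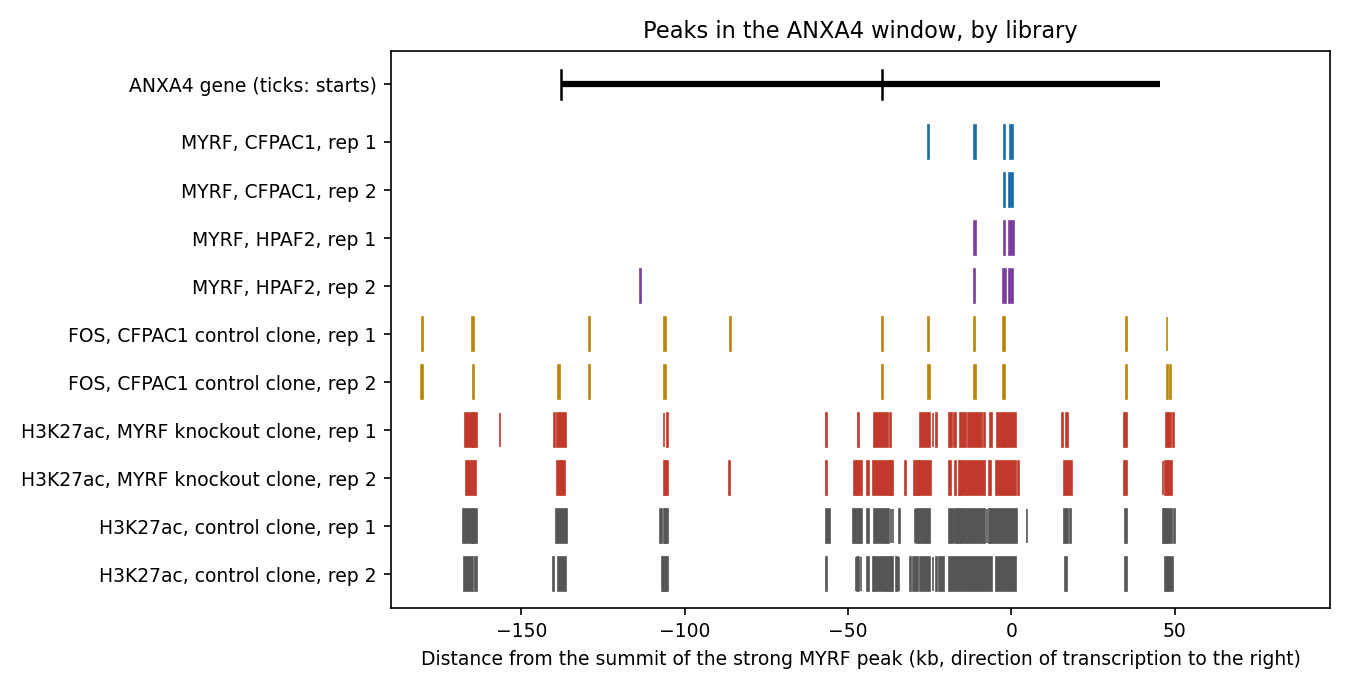
Peaks with a summit in the ANXA4 window in each of the 10 libraries, drawn as bars at their true width (with a thin outline) against the distance in kb from the summit of the strong MYRF peak; the black line is the gene and its ticks the 2 starts. The MYRF peaks of all 4 libraries stack at 0 and 2189 bp upstream, the FOS rows are empty at 0, and H3K27ac peaks cover 0 in 3 of the 4 H3K27ac rows, while knockout clone replicate 2 has a peak on each side of a narrow gap there.

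Acetylation at the strong ANXA4 site was present in both clones. In the 2000 bp around the summit, H3K27ac peaks covered 2000 and 1795 bp in the knockout clone and 1771 and 2000 bp in the control clone. The groups overlapped. Over all 2793 CFPAC1 MYRF sites the median in the same window was 1714 and 1757 bp in the knockout clone and 1798 and 1769 bp in the control clone. The highest H3K27ac peak overlapping the MYRF peaks of the strong site stood at percentiles 84.8 and 95.8 of the knockout clone lists. In the control clone lists it stood at 98.3 and 95.9. In knockout clone replicate 2 and control clone replicate 1 that peak ended upstream of the MYRF summit. Because folds are scaled within a library these ranks are not compared. At the companion, coverage was 1526 and 1734 bp in the knockout clone and 1685 and 1800 bp in the control clone, again overlapping.

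Over the wider ANXA4 window, H3K27ac peaks covered less in the knockout clone. The covered length was 32.3 and 37.7 kb in the knockout clone and 43.6 and 41.4 kb in the control clone, a mean of 35.02 ± 3.85 kb against 42.5 ± 1.57 kb (SD, n = 2 each). Both knockout clone libraries lay below both control clone libraries (ratio of means 0.824, two-sided exact permutation p = 0.333, the smallest that 2 against 2 libraries can give). The mean fold of the peaks in the window was 7.31 and 6.87 in the knockout clone and 7.40 and 6.63 in the control clone. Within the 40 kb centred on the strong MYRF summit, covered length was 13.9 and 16.4 kb in the knockout clone and 19.0 and 18.0 kb in the control clone, and from 1 kb before the second start to the gene end it was 20.9 and 25.6 kb against 27.1 and 28.5 kb. Between the first start and 1 kb before the second it was 4.09 and 6.66 kb in the knockout clone and 8.40 and 6.16 kb in the control clone, which overlapped.

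That call at ANXA4 is to be read against a general one. Of 18008 protein-coding genes with H3K27ac in their window, 25.0% had less covered length in both knockout clone libraries than in both control clone libraries, and 9.91% had more. Among the annexins 3 of 10 had less, 1 of 10 had more and 6 of 10 overlapped. The median ratio was 0.970 over the annexins and 0.959 over all genes, so the annexin counts stood close to the background. After dividing by each library's total covered length, ANXA4 kept its call at a ratio of 0.891, while the calls of ANXA2 and ANXA6 ended. Coverage of the whole list moved with the knockout clone too, and its part in the ANXA4 difference was not tested beyond this scaling.

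ANXA2 and ANXA6 were the other genes with less coverage. ANXA2 binds S100A10 and helps to bring plasminogen to the cell surface, and ANXA6 is the member with a doubled core. The ANXA2 window had 48.6 and 50.4 kb in the knockout clone and 53.3 and 54.3 kb in the control clone (ratio 0.920, two-sided exact permutation p = 0.333). Nearly all of this difference lay in the 50 kb before the gene, with 13.98 and 15.8 kb in the knockout clone and 18.7 and 19.0 kb in the control clone. ICE2, another protein-coding gene, reached into the ANXA2 window, so its flanks are not surely those of ANXA2 alone. Within the ANXA2 span the libraries overlapped, at 34.7 and 34.6 kb against 34.1 and 35.3 kb. The ANXA6 window had 28.4 and 27.6 kb in the knockout clone and 29.7 and 33.1 kb in the control clone (ratio 0.891, two-sided exact permutation p = 0.333). There the difference lay after the gene, where TNIP1 begins, with 26.351 and 23.5 kb in the knockout clone and 26.403 and 29.2 kb in the control clone.

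ANXA3, a member found in several secretory and blood cells, was the gene with more coverage, at 42.5 and 42.0 kb in the knockout clone and 40.1 and 38.9 kb in the control clone (ratio 1.07, two-sided exact permutation p = 0.333). In the 50 kb before the gene the knockout clone had 17.5 and 16.4 kb and the control clone 15.1 and 15.8 kb. In the 50 kb after it the mean was also higher in the knockout clone but the libraries overlapped, at 4.54 and 5.35 kb against 4.997 and 2.701 kb. The higher coverage was not seen with 10 kb of flank, where the ratio was 1.008 and the libraries overlapped. FRAS1, another protein-coding gene, reached into the ANXA3 window, so its flanks are not surely those of ANXA3 alone. ANXA10, a divergent annexin of gastric epithelium, varied most within a clone, at 19.7 and 29.3 kb in the knockout clone and 25.4 and 19.6 kb in the control clone. ANXA1, ANXA5, ANXA7, ANXA8 and ANXA11 had overlapping values with ratios between 0.913 and 1.24.

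**Figure D2:**
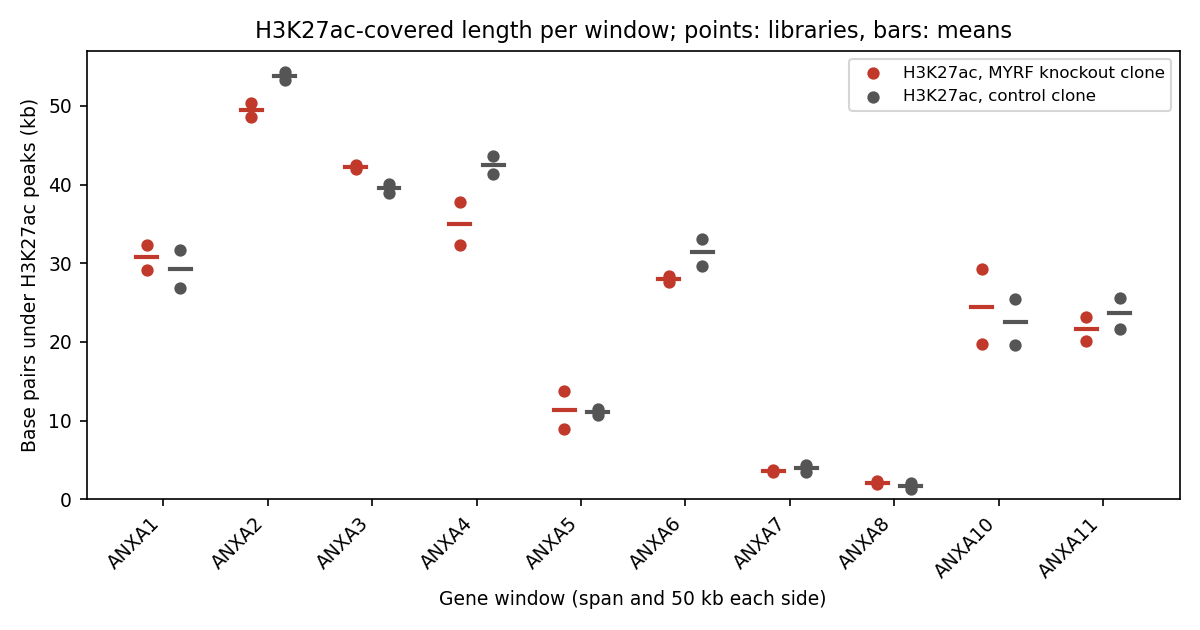
H3K27ac-covered length in kb (linear axis from 0) in the window of each annexin gene; points are the 2 libraries of the MYRF knockout clone (left, red) and of the control clone (right, grey), and bars are means. The clones separate at ANXA2, ANXA3, ANXA4 and ANXA6, with ANXA4 showing the widest gap at 35.02 against 42.5 kb on average.

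Few acetylated regions were lost or gained outright around the annexins. Peaks of the 4 H3K27ac libraries were merged into 239 regions in these windows, of which 103 were present in all 4 libraries, or 43.1%, where 40.2% of all 134465 regions were. Lost regions, present in both control clone and neither knockout clone library, numbered 5 of 239, or 2.09%, against 3.51% of all regions. Gained regions numbered 3 of 239, or 1.26%, against 1.70% of all regions. Shares near the background say nothing particular of the annexins.

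ANXA4 had 2 of the lost regions and no gained one. One of them, chromosome 2, 69773965 to 69774335, lay between the MYRF locations, 32.0 kb downstream of the second start, with folds of 5.63 and 5.79 in the control clone libraries. The other, 69747163 to 69747530, lay 5.37 kb downstream of the second start and had 3.96 and 3.96. ANXA2 lost a region 7.99 kb upstream of its start (5.94 and 4.12 in the control clone) and gained one 39.8 kb downstream (3.27 and 3.62 in the knockout clone). ANXA11 and ANXA6 had 1 lost and 1 gained region each. All 8 regions were short, at most 588 bp, none stood above percentile 57.3 of any list, and none held a MYRF peak of either line.

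MYRF peaks elsewhere in the family were shared by the lines in part. All had lower folds than the strong ANXA4 peak, by which the family was chosen, so that order is no result. In CFPAC1 the highest ANXA6 and ANXA2 peaks exceeded the ANXA4 companion, and in HPAF2 the companion exceeded them. Sites found in both CFPAC1 replicates lay in the windows of 3 of 10 genes, ANXA2, ANXA4 and ANXA6, where the rule was met by 16.6% of all protein-coding genes. Sites found in both HPAF2 replicates lay in those of 4 of 10 genes, ANXA1, ANXA4, ANXA6 and ANXA11, again against 16.6%. Sites shared by both lines lay near 2 of 10, ANXA4 and ANXA6, against 9.19%. Of the 7 CFPAC1 sites of the family 3 were overlapped by an HPAF2 site, against 46.0% of all CFPAC1 sites. That is near the background, so the differences between lines say nothing particular of the annexins. Any MYRF peak of the 4 lists occurred near 7 of 10 genes, against 38.7%, and ANXA5, ANXA7 and ANXA8 had none. The annexin windows were longer than most, with a median of 156.0 kb against 124.1 kb over all genes, and ANXA4 was in the set by choice.

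ANXA2 had the most MYRF locations of the family and none that HPAF2 replicates shared (chromosome 15, 60347151 to 60397986). CFPAC1 had 4 sites there. The strongest lay inside the gene, 26.5 kb downstream of the start, with 10.8 and 7.01 in CFPAC1 and 4.07 in HPAF2 replicate 1. The next by fold in replicate 1 lay 10.6 kb upstream, with 6.80 and 4.57 in CFPAC1 and 3.84 in HPAF2 replicate 2. The site 18.2 kb downstream had 4.601 and 6.31 in CFPAC1 and 4.72 in HPAF2 replicate 1, and the site 23.2 kb downstream had 4.16 and 3.95 in CFPAC1 and none in HPAF2. Single CFPAC1 libraries added peaks of 5.86, 3.06 and 3.82, the last 31.2 kb upstream with neither FOS nor H3K27ac over it.

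The HPAF2 replicates had 2 peaks each around ANXA2, at different places. HPAF2 replicate 2 also had a peak of 5.37, 520 bp upstream of the ANXA2 start. FOS peaks of both replicates overlapped 3 of the 4 CFPAC1 sites, with 11.2 and 12.1 at the strongest, 8.98 and 11.3 upstream and 8.16 and 10.96 at the site 23.2 kb downstream. At the site 18.2 kb downstream a FOS peak of 5.20 was found in replicate 2 alone. H3K27ac covered between 1457 and 2000 bp of the 2000 bp around each of the 4 summits in every library of both clones.

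**Figure D3:**
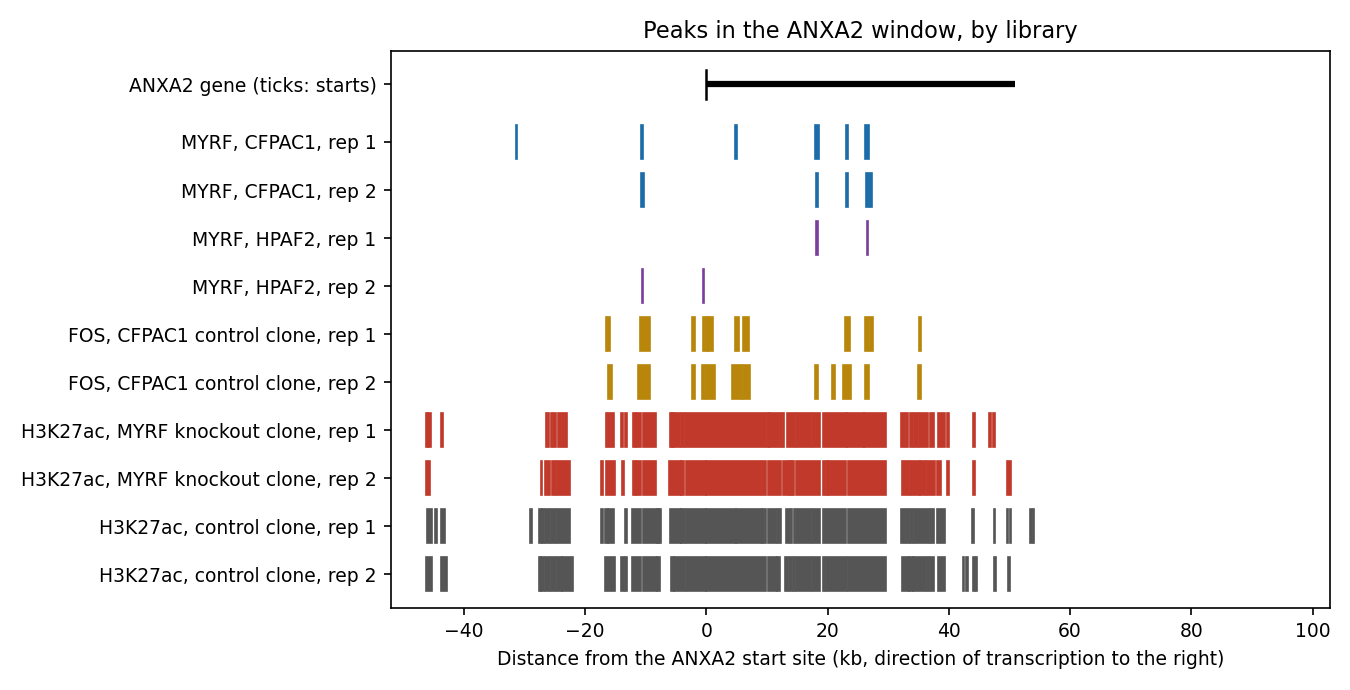
Peaks with a summit in the ANXA2 window in each of the 10 libraries, drawn as bars at their true width (with a thin outline) against the distance in kb from the ANXA2 start; the black line is the gene. MYRF peaks in CFPAC1 recur 10.6 kb upstream and at 18.2, 23.2 and 26.5 kb downstream, and the H3K27ac rows cover less upstream of the start in the knockout clone, 13.98 and 15.8 kb against 18.7 and 19.0 kb.

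The shared site assigned to ANXA6 lay closer to another gene. It was 17.2 kb beyond the 3′ end of ANXA6 and 2.4 kb upstream of the start of TNIP1, which encodes an inhibitor of NF-kappa-B signalling. Its fold was 11.4 and 11.3 in CFPAC1, at percentiles 91.1 and 90.2, and 4.64 and 5.56 in HPAF2, at percentiles 34.6 and 53.8. FOS overlapped it at 3.79 and 6.41, and H3K27ac covered at least 1882 bp of the surrounding 2000 bp in all 4 libraries. No MYRF peak lay inside ANXA6, and its other peak, of 3.74 in CFPAC1 replicate 2, was also beyond the 3′ end. Of the 10 FOS sites in this window, 9 were nearest to a start of another gene.

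ANXA1 and ANXA11 had reproducible MYRF sites in HPAF2 only. ANXA1, a glucocorticoid-induced protein that dampens inflammation, had a site 42.4 kb upstream of its start, with 5.88 and 5.50 in HPAF2 and no peak in either CFPAC1 list. This was also the place of the strongest FOS site of the family by replicate 1 fold, at 20.4 and 18.0 in the CFPAC1 control clone and percentiles 99.2 and 97.9 of the FOS lists. The second HPAF2 site, 27.7 kb downstream of the ANXA1 start and beyond the gene, had folds of 3.65 and 3.0005 and lay among the lowest of its lists, at percentiles 8.97 and 1.53. MYRF was not mapped in the clone that gave the FOS peaks.

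ANXA11, which tethers RNA granules to lysosomes through its long N-terminal tail, had an HPAF2 site at one of its starts. The summit of higher fold lay 153 bp downstream of the start at position 80204491 of chromosome 10, and the folds were 5.64 and 6.77 in HPAF2. Another HPAF2 site, 1479 bp upstream of the outermost start, had 9.48 and 8.75. A CFPAC1 peak of 7.81 coincided with it in replicate 1 and was missing in replicate 2. FOS overlapped the upstream site (4.92 and 5.48) and not the one at the start. The strongest FOS site of the window, 7.88 kb downstream of a start with 10.0 and 11.5, carried MYRF peaks of 4.02 in CFPAC1 replicate 1 and 3.75 in HPAF2 replicate 2. A MYRF peak of any list lay within 1 kb of 3 of the 13 annexin starts, in ANXA11, ANXA2 and ANXA3, against 5.55% of all protein-coding starts, and in ANXA3 and ANXA2 it rested on 1 library.

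ANXA3 and ANXA10 had MYRF peaks in 1 CFPAC1 library each. The ANXA3 peak (4.52, replicate 1) lay 838 bp downstream of the start and the ANXA10 peak (5.58, replicate 2) 5925 bp downstream. Both coincided with the strongest FOS site of their window, at 7.82 and 9.43 for ANXA3 and 9.35 and 13.4 for ANXA10. In all, MYRF peaks around the family fell at 22 separate locations, of which 9 were found in 1 library, against 48.0% of all 8885 MYRF locations, and 3 in all 4, against 14.4%. Of the 22, 14 lay inside the gene, a count for which no share over all genes was taken and which long gene spans favour. An H3K27ac peak overlapped 19 of the 22 in all 4 H3K27ac libraries, against 56.5% of all locations.

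**Figure D4:**
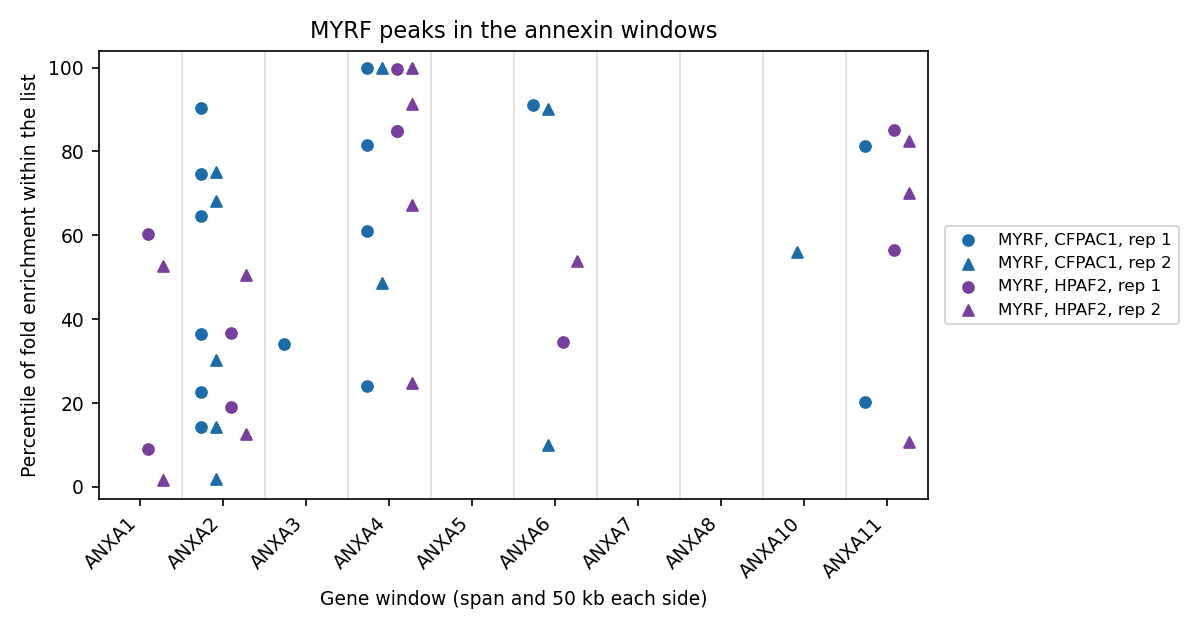
Percentile of each MYRF peak's fold enrichment within its own list, by annexin window; circles are replicate 1 and triangles replicate 2, blue CFPAC1 and purple HPAF2. The strong ANXA4 peak sits at the top of all 4 lists, ANXA6 has CFPAC1 peaks at 91.1 and 90.2 and lower HPAF2 peaks at 34.6 and 53.8, ANXA1 has HPAF2 peaks only, and ANXA5, ANXA7 and ANXA8 are empty.

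FOS sites lay in the 50 kb window of every annexin examined. A FOS site of both replicates lay in the window of 10 of 10 genes, where 67.7% of all protein-coding genes had one, mostly in shorter windows. The count was 9 with 10 kb of flank, 8 with the gene span alone and 9 with a −log10 q of at least 10. Of 61 FOS sites, 45 were nearest to a start of the annexin itself. The same share over all genes was not taken, and a window built around a gene favours its own start. The 61 FOS sites numbered 10 each for ANXA2, ANXA4 and ANXA6, 7 each for ANXA1 and ANXA3, 6 for ANXA11, 5 for ANXA5, 4 for ANXA10 and 1 each for ANXA7 and ANXA8. An H3K27ac peak of both control clone libraries overlapped 55 of the 61, against 71.4% of all FOS sites. A CFPAC1 MYRF site overlapped 5 of the 61, against 6.80% of all FOS sites. Taken from the MYRF side, FOS overlapped 5 of the 7 CFPAC1 MYRF sites of the family, against 64.9% of all CFPAC1 MYRF sites, and the exceptions were the strong ANXA4 site and the ANXA2 site 18.2 kb downstream. It overlapped 5 of the 8 HPAF2 sites, against 60.9%. MYRF was mapped in the original lines and FOS in a clone, so target and cell source changed together.

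Genes without MYRF could carry strong FOS sites. ANXA5, whose protein binds phosphatidylserine and serves as a probe of dying cells, had FOS at 13.5 and 13.4, 6.15 kb downstream of its start, and at 12.2 and 14.5, 14.9 kb upstream. ANXA7, a protein of granule fusion, had its 1 FOS site at the start (3.88 and 4.07). ANXA8, an annexin of squamous epithelia, had its 1 site at the edge of a window of 623.8 kb, at 6.97 and 12.2, nearest to the start of another gene. That window, on chromosome 10 from 47467993 to 47991796 with its flanks, held only 5 and 6 H3K27ac peaks in the knockout clone and 3 and 5 in the control clone. ANXA8 has a near-identical copy, ANXA8L1, whose window had 0 peaks in all 10 lists. How reads that match both copies were handled is not given in the sources used here, so the values of both are uncertain. The annotated ANXA8 span is 523.8 kb long and its window held 6 other protein-coding genes, so its peaks and covered length belong to that stretch and not surely to ANXA8.

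The annexin starts were acetylated in both clones. An H3K27ac peak lay within 1 kb of 12 of the 13 starts in all 4 libraries, where 60.8% of the 22199 start sites of protein-coding genes had one, and the exception was the inner start of ANXA6, which had a peak of 4.11 in knockout clone replicate 2 alone. Coverage of the 2000 bp around the ANXA4 starts was 2000 and 1911 bp at the first and 2000 and 2000 bp at the second in the knockout clone, and 2000 bp in each control clone library at both. The outer ANXA6 start had 927 and 1634 bp in the knockout clone and 1458 and 1603 bp in the control clone. The clones did not overlap at 4 of the 13 starts, 2 with less in the knockout clone, against 11.2% of all start sites, and 2 with more, against 7.91%. Those shares are over all 22199 start sites, and a start without H3K27ac in any library cannot separate the clones. The shares over acetylated starts alone were not taken, so the annexin counts are not read as raised. The knockout clone had less at the ANXA5 start, with 1506 and 1599 bp in the knockout clone and 1665 and 1648 bp in the control clone, and at the ANXA7 start, with 1604 and 1614 bp against 1655 and 1831 bp. It had more at the ANXA1 start, with 1922 and 2000 bp in the knockout clone and 1912 and 1833 bp in the control clone, and at the ANXA10 start, with 1873 and 2000 bp against 1846 and 1575 bp. The highest peak within 1 kb of the ANXA2 start was among the highest of each list, above percentile 99.6 in all 4 lists. Its folds were 32.4 and 30.8 in the knockout clone and 26.4 and 34.0 in the control clone. It covered the start itself in knockout clone replicate 1 alone. The peak over the start had a fold of 15.2 in knockout clone replicate 2, and of 17.8 and 17.6 in the control clone. FOS peaks of both replicates lay within 1 kb of 7 of the 13 starts, against 10.5% of all start sites, in ANXA2, ANXA3, ANXA4, ANXA7, ANXA10 and ANXA11. Starts of 1 gene can share a peak, as the ANXA11 starts at 80205537 and 80205808 shared FOS peaks of 3.68 and 4.56. Counted by gene, 9 of 9 had a start with H3K27ac in all 4 libraries, and 6 of 9 had one with FOS in both replicates.

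Other annexins and known annexin partners gave a wider view of the pathway. The list held 20 genes, including S100 proteins, calpains and membrane repair genes, and was chosen with earlier results of these data known. A CFPAC1 MYRF site lay near 9 of 20 (16.6% of all protein-coding genes), an HPAF2 site near 10 (16.6%), a shared site near 5 (9.19%) and a FOS site near 18 (67.7%). S100A4 and S100A6, which are neighbours, had the same 3 CFPAC1 and 3 HPAF2 sites in their windows, so these sites enter the counts for each of them. S100A11, a partner of ANXA1, had 1 site in each line, and S100A10, the partner of ANXA2, had none that replicates shared. MYOF, a membrane repair protein, had 2 CFPAC1 sites. H3K27ac-covered length was lower in both knockout clone libraries for 4 of 20 (25.0% of all genes tested), at ANXA9, DYSF, GSN and MYOF, and higher for 2 (9.91%), at CAPN2 and SRI. MYOF had a mean of 79.1 kb in the knockout clone and 90.9 kb in the control clone. It had the most lost regions of the list, 5 of 71, and 0 gained ones. Summed over the 20 windows, 9 of 468 regions were lost, or 1.92%, against 3.51% of all regions. Regions around S100A4 and S100A6, 19 for each gene and none of them lost or gained, enter that sum for each gene. Gained ones numbered 6 of 468, or 1.28%, against 1.70%.

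The limit of the window set which peaks counted. Just inside it lay the HPAF2 peaks 42.4 kb from the ANXA1 span, at 5.88 and 5.50. Just outside lay an HPAF2 replicate 2 peak of 4.92, 60.3 kb from ANXA6, and CFPAC1 peaks of 7.49 and 5.65, 60.9 and 61.0 kb from ANXA8.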

How the data were processed

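The tools named in the submitters' processing notes are MACS2 2.1.0.20150731, Bowtie2 2.2.6, Trimmomatic 0.38 and SAMtools, with the build GRCh38 (hg38), and 1 peak list per library was deposited. The control used for calling is not given in the sources used here. The authors' lists give each peak's fold enrichment (a ratio over local background) and −log10 q. Reads in repeated sequence may be lost or shared among copies.

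Genes came from RefSeq GRCh38.p14 and windows spanned the gene and 50 kb each side. Sites needed overlapping peaks in both replicates. H3K27ac covered length counted base pairs under peaks, compared over libraries by exact permutation tests. 20037 protein-coding genes gave the background. For the H3K27ac list of control clone replicate 1, covered lengths equalled those of bedtools 2.31.1 in all 20037 windows (0 differed). The other lists were not checked in this way. The comparison was tested on simulated data with a planted loss of peaks. That loss was larger than those reported for ANXA2, ANXA4 and ANXA6, so losses of their size were not tested. Scripts ran in Python 3.11.15 (scipy 1.17.1, pandas 2.3.3, numpy 2.4.6, and matplotlib 3.10.9 for figures). The genes, lists and rules were chosen with earlier results of these data known. Every one of the 10 genes is named, with its strongest peaks, reproducible MYRF sites and lost or gained regions. The HPAF2 input sample was not analysed here. Alternatives covered window, peak threshold, overlap rule, scaling, each library left out and, added after seeing the data, a replicate block.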

Additional observations from a re-analysis of the deposited data

How the results depend on the processing

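With 10 kb of flank in place of 50 kb, 1 gene had a MYRF site shared by both lines, 3 of 5 CFPAC1 MYRF sites had FOS, and 0 genes had more H3K27ac-covered length in the knockout clone. With the gene span alone 1 gene had a shared site, 3 of 5 CFPAC1 sites had FOS and 2 genes had an HPAF2 site. There 3 regions were lost, 1 gene had less covered length and 1 gene had more. The gene with more was then ANXA1 (ratio 1.13) and not ANXA3. With a −log10 q of at least 10, 1 gene had a shared site, 2 had an HPAF2 site, 2 of 4 CFPAC1 sites had FOS, 2 regions were lost and 2 genes had more covered length. ANXA8 turned direction there, to a lower covered length in the knockout clone at a ratio of 0.572, against 1.24 as reported and 1.34 after scaling, and it has few peaks. Divided by the library total, covered length was lower in the knockout clone for 1 gene (ANXA4) and higher for 2 (ANXA3 and ANXA8). Summits within 200 bp gave the counts of the overlap rule. Leaving out 1 library at a time, genes with a shared site numbered 2 to 3, with a CFPAC1 site 4 to 5, with an HPAF2 site 5 and with a FOS site 10, and 5 to 11 CFPAC1 sites had FOS. Lost regions ranged from 16 to 31, gained ones from 8 to 26, genes with less coverage from 3 to 5 and with more from 2 to 4, since 1 library then stood for its clone. The ANXA4 ratio lay between 0.760 and 0.891 under all alternatives run, and both knockout clone values stayed below both control clone values wherever both were used. Of the other covered-length calls, those of ANXA2 and ANXA6 ended with the gene span alone and with scaling, that of ANXA2 also at the stricter threshold (ratio 0.998), that of ANXA6 also with 10 kb of flank (0.923), and that of ANXA3 with 10 kb (1.008) and with the span alone (1.005). The strong ANXA4 peak was at percentile 99.7 or higher of each MYRF list by fold or by −log10 q. The family was chosen by this peak, so its rank supports nothing. The labels do not tie the replicate numbers of the clones together, and a replicate block was tried after the data were seen. With same-numbered libraries paired, the knockout clone was lower in both pairs for 3 genes and higher for 3 (ANXA1, ANXA3 and ANXA8), and a paired exact test of 2 pairs cannot go below p = 0.500. Deviations of same-numbered libraries correlated at r = -0.15 over genes, and with the numbers crossed these counts were 5 and 2. Depth is unknown, so an absent peak may be a weak one.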
